A study of Mus musculus with 4 samples.

Results

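The nuclear genes of respiratory chain complexes I, III and IV were followed in BA/F3 cells with and without the ETV6-RUNX1 fusion gene. Members were the genes whose symbol on the array starts with Nduf or Uqcr, or with Cox followed by a digit from 4 to 8 and a letter, counting only probe sets that name 1 gene. The rule found 69 of the 18193 genes named in this way, through 139 probe sets, and the probe set with the highest mean level stood for each gene. Of the 69 genes, 60 passed the filter on low values and were tested, among 8892 genes tested in all. The rule used no measured difference.

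BA/F3 is an established mouse pro-B line that grows on interleukin 3. The series holds 4 libraries of total RNA, each hybridised to a mouse 3' expression array. By title, source name and genotype, 2 libraries came from cells carrying an inducible human ETV6-RUNX1 (also called TEL-AML1), the fusion transcription factor of a common childhood leukaemia, and 2 from control cells without it. Both lines received the inducer mifepristone at 32.5 pM for 16 h, so the inducer itself is not contrasted.

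The labels conflict. In the free-text descriptions both replicate 1 libraries carry the opposite condition: ETV6-RUNX1 replicate 1 is described as control, and control replicate 1 as fusion-expressing. Title and description are the same for both replicate 2 libraries. Every comparison is therefore given under both groupings, with libraries named by title. The replicate 2 pair, on which all labels are the same, is also given alone. The series text and the titles speak of promoter immunoprecipitation, whereas the protocols describe RNA, and the values were read as RNA levels.

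The respiratory chain sits in the inner mitochondrial membrane and passes electrons from NADH to oxygen. Complex I takes electrons from NADH, complex III moves them from ubiquinol to cytochrome c, and complex IV, cytochrome c oxidase, hands them to oxygen, and all of these complexes pump or release protons that drive ATP synthase. Each complex combines subunits encoded in mitochondrial DNA, which the rule does not cover, with nuclear-encoded subunits, and complex I needs assembly factors that are absent from the finished enzyme. In hematopoietic cells as elsewhere, the nuclear-encoded subunits are known as widely expressed, abundant transcripts, and several complex IV subunits also exist in forms made mainly in muscle, lung or testis.

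Levels are deposited log2 values, which the authors made with GCRMA, a method that corrects background by probe sequence. They run from a floor of 2.23 to 16.3 over the 45101 probe sets, and between 54.7% and 54.9% of the probe sets of a library lay within 0.5 of the floor. Probe sets with a mean level of at least 4 entered the test. All differences below are ETV6-RUNX1 minus control on the log2 scale, tested with limma over 17720 probe sets, with Benjamini-Hochberg adjustment and a threshold of 0.05. With 2 libraries a group and 2 residual degrees of freedom, only large differences can pass, and an exact permutation test of 1 gene cannot go below a two-sided p of 0.333. Nothing in the labels says that replicates came from separate cultures, so the p-values speak only to the spread between these 4 libraries, which may be technical.

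The promoters of the members with the highest and the lowest difference between the described groups are shown first, since these genes mark the ends of the range described below. Both are RefSeq sequence of the build GRCm38.p6, read on the strand of the gene, and end at the base before the annotated start. Uqcrh, the complex III hinge protein that touches cytochrome c1, lies on the minus strand at chr4:116066965-116075070, and the 250 bases before it are chr4:116075071-116075320. Ndufaf4, a complex I assembly factor, lies on the plus strand at chr4:24898083-24905001, and the 250 bases before it are chr4:24897833-24898082. Capitals mark a match to an ETS motif in Uqcrh and to an NRF1 motif in Ndufaf4.
Uqcrh: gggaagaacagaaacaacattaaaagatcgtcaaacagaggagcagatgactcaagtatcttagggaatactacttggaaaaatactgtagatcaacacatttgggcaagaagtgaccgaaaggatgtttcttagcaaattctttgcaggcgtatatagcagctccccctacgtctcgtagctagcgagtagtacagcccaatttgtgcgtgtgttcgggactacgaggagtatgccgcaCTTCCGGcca
Ndufaf4: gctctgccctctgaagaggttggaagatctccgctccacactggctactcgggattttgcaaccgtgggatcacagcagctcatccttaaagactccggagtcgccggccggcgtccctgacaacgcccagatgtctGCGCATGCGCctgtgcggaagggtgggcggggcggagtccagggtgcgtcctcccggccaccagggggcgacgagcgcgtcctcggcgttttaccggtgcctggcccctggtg

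4 short motifs were searched on both strands in these windows, and a further one was added after values were seen. The ETS motif CCGGAAG lay 10 to 4 bases before the start of Uqcrh and was found in 9 of 58 promoters of 56 members, or 15.5%, against 6.91% of all 32851 promoters. The NRF1 motif GCGCANGCG, named for nuclear respiratory factor 1, a known activator of respiratory chain genes, matched the Ndufaf4 promoter in 2 overlapping places, from base 113 to base 104 before the start. It was found in 7 promoters of 6 members, Cox6a1, Ndufa5, Ndufa8, Ndufaf4, Ndufb4 and Ndufs5, or 12.1%, against 5.16% of all promoters. The RUNX motif TGTGGT, the core site bound by the RUNX1 part of the fusion, was found in 15.5% of member promoters against 14.0% of all, and in neither promoter printed here. The YY1 motif AAGATGGC was in none of the 58 and in 1.56% of all promoters, and the E-box CACGTG, the added motif, in 5.17% against 6.02%. A match describes letters in a window and not a bound site.

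Most of these genes were well above background in all 4 libraries. Of the 69, 53 had a mean log2 level of 10 or more, and 8 lay within 0.5 of the floor in every library. The tested members had a median log2 level of 12.18 in ETV6-RUNX1 replicate 1, 12.26 in control replicate 1, 12.32 in control replicate 2 and 12.42 in ETV6-RUNX1 replicate 2. Between libraries these medians differed little. They were ordered neither by title nor by description, but both replicate 2 libraries lay above both replicate 1 libraries.

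The genes at the floor were, with 1 exception, the tissue-restricted forms of complex IV. Cox4i2, the lung form of subunit 4, Cox6a2 and Cox8b, the heart and muscle forms of subunits 6a and 8, and Cox6b2, Cox7b2 and Cox8c, forms known from testis, read between 2.23 and 2.25 in every library. Ndufa4l2, a paralogue of Ndufa4 known to be induced by hypoxia, read 2.23 in all 4. Cox7a1, the muscle form of subunit 7a, read 3.22 in ETV6-RUNX1 replicate 1, 4.11 in control replicate 1, 4.03 in control replicate 2 and 4.25 in ETV6-RUNX1 replicate 2, and with a mean of 3.90 was the member just outside the filter. Cox7c, with a mean of 6.03, was the one just inside.

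The widely expressed forms of subunits 4, 6a, 6b, 7a and 8 were detected in every library, and Cox7b, that of Cox7b2, was not analysed here. Cox4i1, a nuclear subunit that contacts the catalytic core, read 14.21, 14.42, 14.46 and 14.39 in ETV6-RUNX1 replicate 1, control replicate 1, control replicate 2 and ETV6-RUNX1 replicate 2, the order kept for every list of 4 values below. Cox6a1 read 14.58, 14.70, 14.77 and 14.79, and Cox7a2 read 13.91, 14.08, 14.03 and 14.11. Levels of different probe sets are not on a common scale, so only detection is compared here. The remaining gene at the floor was Ndufb4, a complex I accessory subunit, whose named probe set read 2.23 throughout.

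**Figure D1:**
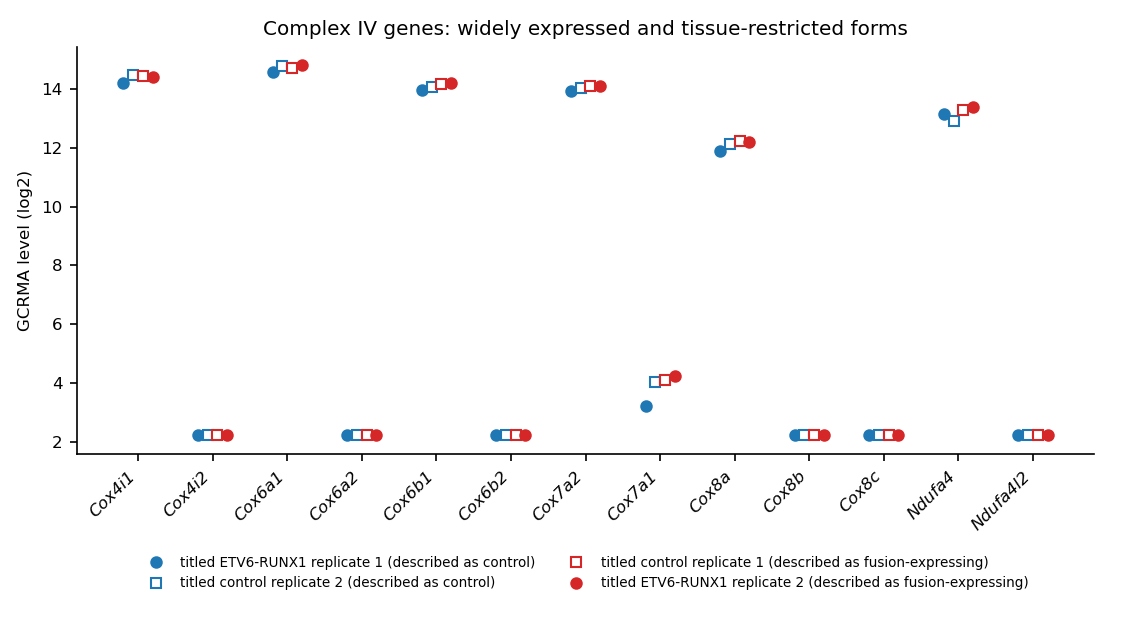
GCRMA log2 level of 13 complex IV genes in each of the 4 libraries, with tissue-restricted forms beside their widely expressed counterparts. Filled circles are libraries titled ETV6-RUNX1 and open squares those titled control, blue where the description field says control and red where it says fusion-expressing. The widely expressed forms sit above 11 in every library, and the restricted forms sit at the floor near 2.23 except Cox7a1, between 3.22 and 4.25.

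By title, the 60 tested members did not separate. None passed the limma threshold, with every adjusted p at 1, and 0 were at an unadjusted p under 0.05. Of all 17720 probe sets, 0% passed, and unadjusted p under 0.05 was reached by 0.0787% of genes in the higher and 0.146% in the lower direction. The members' differences ran from -0.21 to 0.57 with a median of 0.01, and 33 were above and 27 below 0. In 59 of the 60, or 98.3%, the difference was under 0.5 in size, against 95.7% of all genes tested. Groups did not overlap for 7 higher and 5 lower members, against 3.96% and 5.71% of all genes.

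Of the members whose titled groups did not overlap, Ndufa5, an accessory subunit of the peripheral arm of complex I, had the largest positive difference. It read 12.41, 12.13, 12.16 and 12.39, a difference of 0.26 (SE 0.13, 95% interval -0.12 to 0.64). The titled ETV6-RUNX1 libraries were both higher, by 0.29 in the replicate 1 pair and 0.24 in the replicate 2 pair. The accessory subunits Ndufb2, Ndufb5 and Ndufc1 of the complex I membrane arm followed with 0.21, 0.19 and 0.18. Their other tested probe sets gave 0.21, -0.05 and 0.11, with overlapping groups for Ndufb5 and Ndufc1, and that of Ndufa5 gave 0.05. At the other end, Cox4i1 differed by -0.14 (SE 0.10), the small complex III subunit Uqcr10 by -0.13 (SE 0.16), and the complex I accessory subunits Ndufa6 and Ndufa3 by -0.11 and -0.07. None of these passed the test.

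By description, 0 of the 60 members passed the limma threshold as well, with adjusted p between 0.17 and 0.99, where 0.0113% of all probe sets passed. At an unadjusted p under 0.05 there were 8, of which 4 were higher and 4 lower, against 13.6% and 9.76% of all genes. Groups did not overlap for 14 higher and 16 lower members, against 30.3% and 25.6% of all genes, so these shares are near the background. The median difference was -0.02 over the members and 0.01 over all genes. In size, 54 of 60, or 90.0%, differed by under 0.5, against 66.3% of all genes and 72.6% of the genes with a mean of at least 10. The median size of the difference was 0.14 in the members, 0.33 in all genes and 0.28 in the bright ones.

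**Figure D2:**
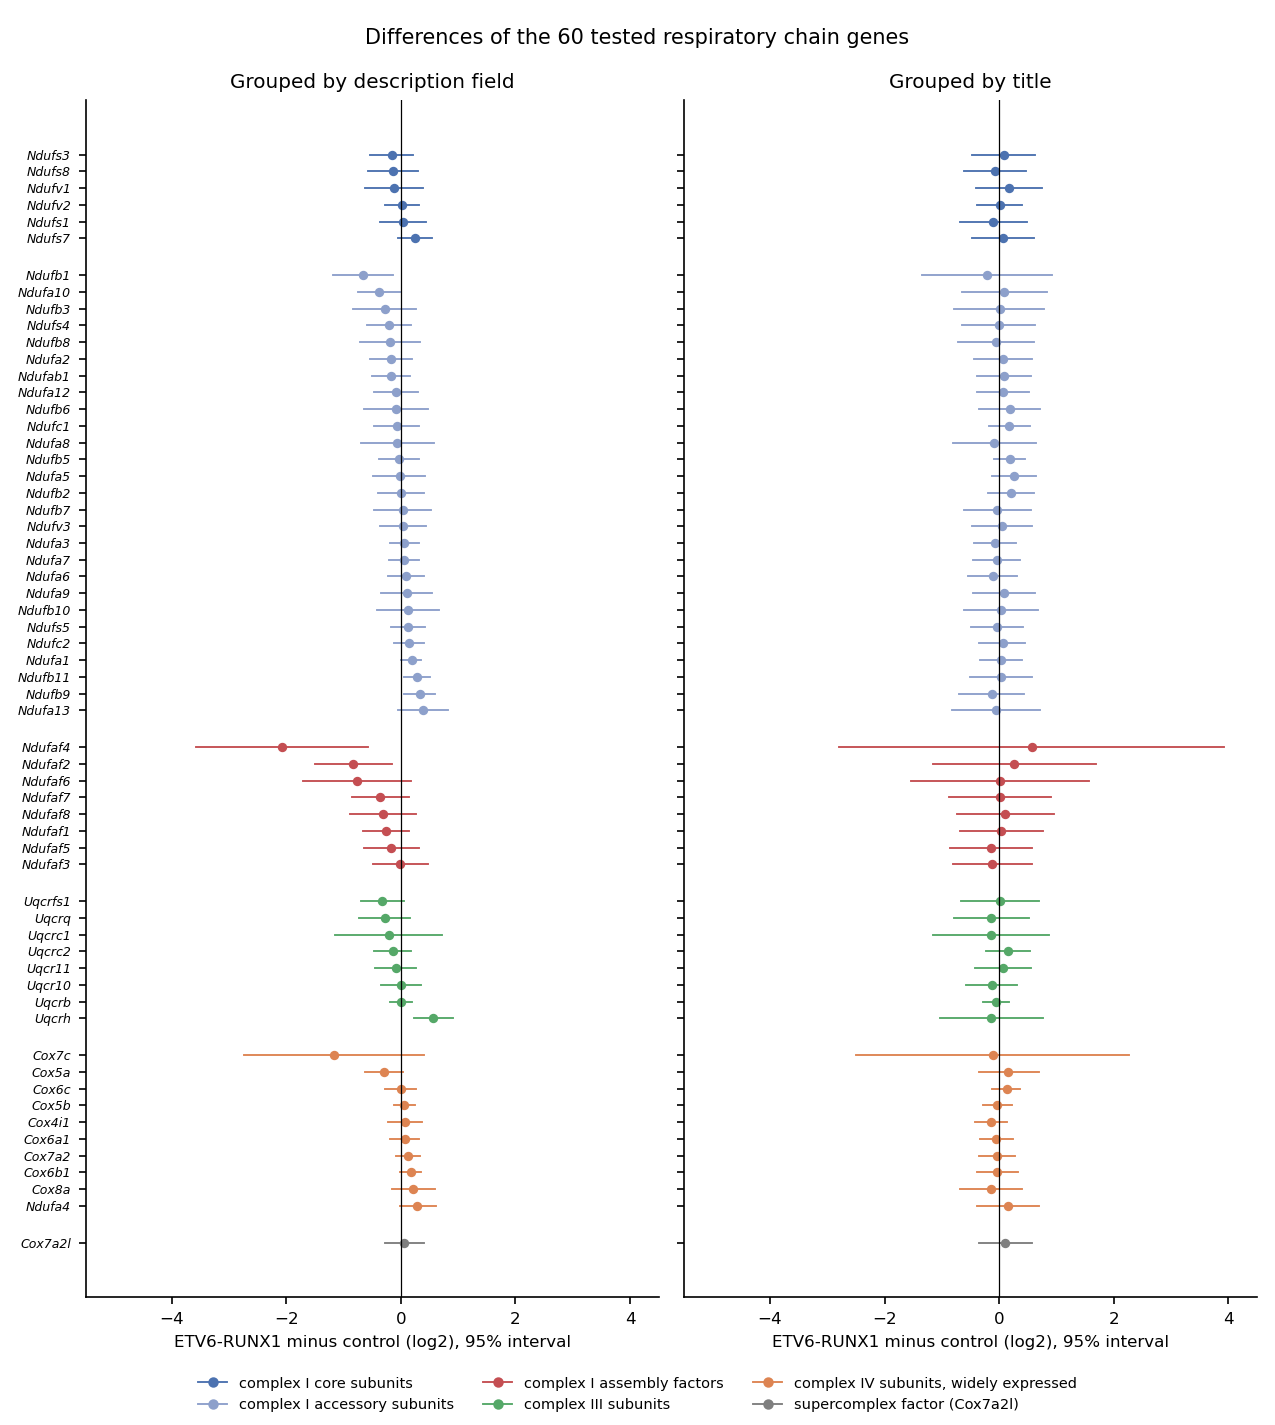
Difference of each tested member, ETV6-RUNX1 minus control on the log2 scale, with its 95% limma interval from 2 libraries against 2, grouped by the description field on the left and by title on the right. Members are ordered by role and then by their difference by description. Most points lie near 0, and by description all 8 assembly factors lie below 0, down to -2.08 for Ndufaf4.

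The complex I assembly factors lay to one side between the described groups. At the probe sets that stand for them, all 8 had a negative difference by description, 7 of them with groups that did not overlap. The median was -0.34 with a range from -2.08 to -0.01. Against this, 25.6% of all genes were lower without overlap. None passed the threshold, and 2 were lower at an unadjusted p under 0.05, against 9.76% of all genes. The subunits and Cox7a2l together, 52 genes, had 28 higher and 24 lower with a median of 0.01. By title, 6 assembly factors were above and 2 below 0, with a median of 0.03 and overlapping groups in all 8. In a bulk culture, fewer cells of a kind and less RNA per cell cannot be told apart.

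Ndufaf4, which acts early in building complex I, had the widest range of all members. It read 10.50, 7.86, 10.75 and 9.24, a difference by description of -2.08 (SE 0.53, 95% interval -3.58 to -0.58, limma adjusted p = 0.19), or 4.24-fold lower. Both libraries described as control were above both described as fusion-expressing, and control replicate 1 was the lowest. Its second probe set read 9.71, 7.35, 9.97 and 7.93, in the same order of groups, with a difference of -2.20 (SE 0.27, limma adjusted p = 0.13). By title the difference was 0.57 (SE 1.18, 95% interval -2.80 to 3.93), made of 2.65 in the replicate 1 pair and -1.52 in the replicate 2 pair.

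Ndufaf2, a chaperone that sits on a late assembly intermediate, read 10.15, 9.06, 10.16 and 9.59, a difference by description of -0.83 (SE 0.24, 95% interval -1.50 to -0.16, limma adjusted p = 0.21). The libraries described as control were nearly equal, and the others lay below them by different amounts. Ndufaf6, another factor that acts early, read 7.29, 6.52, 7.84 and 7.08, a difference of -0.76 (SE 0.33, 95% interval -1.71 to 0.18, limma adjusted p = 0.32). Here the gap between the groups was small, since ETV6-RUNX1 replicate 1 lay close to ETV6-RUNX1 replicate 2. Ndufaf7, a mitochondrial methyltransferase, averaged 8.44 ± 0.10 (SD, n = 2) in the described controls against 8.08 ± 0.12 in the described fusion libraries, which differed by -0.36 (SE 0.18) and did not overlap with the controls.

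The other assembly factors differed less. Ndufaf8, the partner of Ndufaf5, differed by -0.31 (SE 0.20) and Ndufaf1, a factor of the membrane arm, by -0.26 (SE 0.14). A dimmer probe set of Ndufaf8 gave -0.12 (SE 0.18) with overlapping groups. Ndufaf5, which hydroxylates an arginine of Ndufs7, differed by -0.17 (SE 0.17). Ndufaf3, with overlapping groups, averaged 9.13 ± 0.18 (SD, n = 2) in the described controls against 9.12 ± 0.01 in the described fusion libraries, a difference of -0.01 (SE 0.17, 95% interval -0.49 to 0.48), and without control replicate 2 its difference was 0.12. It is known to work in a complex with Ndufaf4. In the replicate 2 pair, on which the labels are the same, ETV6-RUNX1 replicate 2 was lower than control replicate 2 in all 8, with a median of -0.33. Of all 8892 genes tested, 4378 were lower in that pair, with a median of 0.00. In the replicate 1 pair the titled difference was above 0 in 7 of 8, with a median of 0.40, and in 4085 of all genes, with a median of -0.03. Both pairs enter the difference by description, so neither is separate from it.

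**Figure D3:**
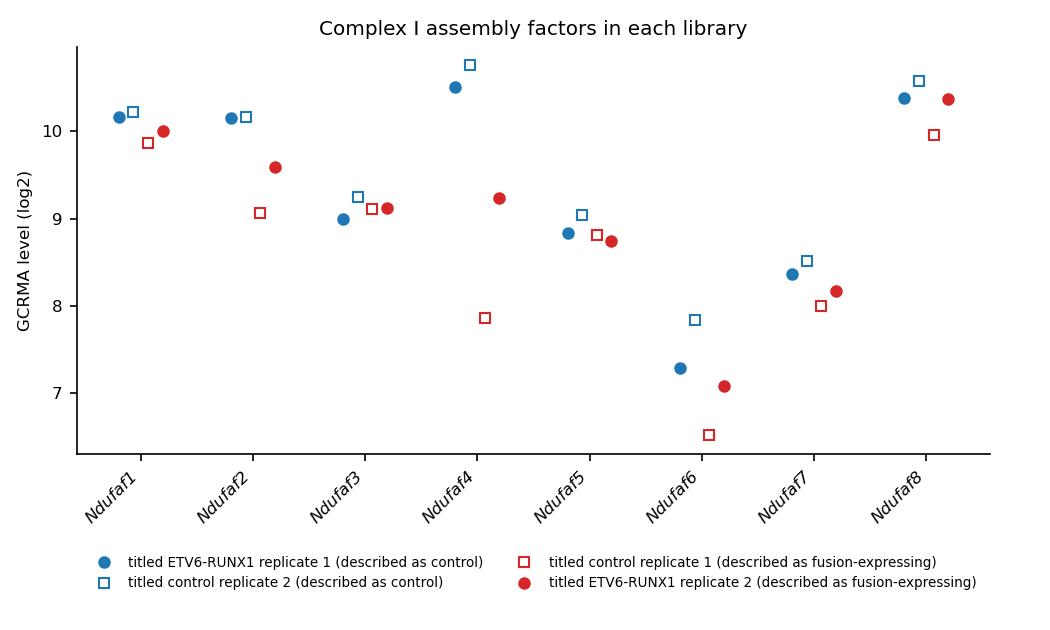
GCRMA log2 level of the 8 complex I assembly factors in each library. Filled circles are libraries titled ETV6-RUNX1 and open squares those titled control, blue where the description field says control and red where it says fusion-expressing. For every factor but Ndufaf3 both blue points lie above both red points, and for Ndufaf4 the levels run from 7.86 to 10.75.

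The nuclear part of the catalytic core of complex I differed little between the described groups. Its 6 tested nuclear subunits, which carry the flavin and the iron-sulfur clusters, differed by description from -0.16 to 0.24 with a median of -0.05, and 3 were higher and 3 lower. Ndufs7, which holds the last cluster before ubiquinone, read 12.11, 12.29, 12.13 and 12.44, a difference of 0.24 (SE 0.10, 95% interval -0.05 to 0.54). Both libraries described as fusion-expressing lay above both described as control. A dimmer probe set of Ndufs7 gave 0.12 (SE 0.13) by description with overlapping groups, and -0.14 by title, lower without overlap. Ndufv1, which binds NADH, differed by -0.12 (SE 0.18), and Ndufv2, its partner, by 0.02 (SE 0.10). By title the probe sets that stand for the core genes ran from -0.10 to 0.17, with overlapping groups in all 6.

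The 27 tested accessory subunits of complex I, of 28 on the array, split evenly by description, with 14 higher, 13 lower and a median of 0.01. Groups did not overlap for 7 higher and 4 lower, where 30.3% and 25.6% of all genes did not. The unadjusted p was under 0.05 for 3 higher and 2 lower subunits, where all genes gave 13.6% and 9.76%. Ndufb1, a small membrane-arm subunit, read 11.55, 11.09, 11.98 and 11.11, a difference of -0.66 (SE 0.19, 95% interval -1.19 to -0.13, limma adjusted p = 0.20). The libraries described as fusion-expressing were nearly equal and lay below both others. Ndufa10 read 12.12, 11.64, 12.17 and 11.89, a difference of -0.38 (SE 0.13).

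Ndufa13, known also as GRIM-19 for its part in interferon and retinoid responses, read 12.00, 12.44, 12.30 and 12.63, a difference of 0.39 (SE 0.15, 95% interval -0.05 to 0.83). Control replicate 1 lay just above control replicate 2, so the described groups were close at that edge. Ndufb9 read 12.98, 13.44, 13.11 and 13.31, a difference of 0.33 (SE 0.10), Ndufb11 differed by 0.28 (SE 0.08) and Ndufa1 by 0.19 (SE 0.06). All 4 had groups that did not overlap by description and overlapping groups by title.

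The 8 tested complex III genes had a median of -0.12 by description, with 3 higher and 5 lower. Uqcrh read 13.56, 14.27, 13.55 and 13.98, a difference of 0.57 (SE 0.12, 95% interval 0.23 to 0.91, limma adjusted p = 0.17), or 1.49-fold higher. The libraries described as control differed by 0.01 and both others lay above them. Its second probe set read 12.63, 13.28, 12.59 and 13.01, a difference of 0.53 (SE 0.13). Its promoter is the first of those printed above.

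At the probe sets that stand for the genes, Uqcrh alone among the complex III genes was higher without overlap, where 30.3% of all genes were. A dimmer probe set of Uqcr10 was also higher without overlap, with a difference of 0.36 (SE 0.16), and another gave 0.09 with overlap. Uqcrfs1, the Rieske iron-sulfur protein that takes electrons from ubiquinol, read 12.16, 11.81, 12.32 and 12.02, a difference of -0.32 (SE 0.13, 95% interval -0.70 to 0.05). Uqcrq, a small subunit, differed by -0.28 (SE 0.16), and these 2 were lower without overlap, where 25.6% of all genes were. Dimmer probe sets of Uqcrb and Uqcrc2 were lower without overlap too, with differences of -0.24 (SE 0.10) and -0.20 (SE 0.13). The core proteins Uqcrc1 and Uqcrc2 differed by -0.21 (SE 0.33) and -0.14 (SE 0.12), and the value for Uqcrc1 was 0.16 without control replicate 2. Uqcrc1 had the widest interval of the complex, from -1.14 to 0.72, with levels of 11.67, 11.61, 12.41 and 12.05 that were higher in both replicate 2 libraries.

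The 10 tested complex IV genes had a median of 0.07 by description, with 7 higher and 3 lower. Groups did not overlap for 5 higher and 2 lower, against 30.3% and 25.6% of all genes. Ndufa4, named as a complex I gene and now placed in complex IV, read 13.13, 13.27, 12.92 and 13.37, a difference of 0.29 (SE 0.11, 95% interval -0.02 to 0.61). Cox8a, a small membrane subunit, differed by 0.22 (SE 0.13) and Cox6b1, which joins the dimer, by 0.18 (SE 0.07). Cox5a, a matrix-facing subunit, differed by -0.30 (SE 0.12).

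Cox7c, another small membrane subunit, had the largest difference of the complex and the dimmest probe set of all members tested. It read 6.05, 4.99, 7.18 and 5.91, a difference by description of -1.17 (SE 0.56, 95% interval -2.74 to 0.41, limma adjusted p = 0.35). The gap between the described groups was small, since ETV6-RUNX1 replicate 1 lay just above ETV6-RUNX1 replicate 2. Its other probe set read 4.97, 3.94, 6.60 and 4.62, a difference of -1.51 (SE 0.66). Cox7a2l, which joins complexes III and IV into supercomplexes, read 11.66, 11.62, 11.63 and 11.80, and differed by 0.06 (SE 0.12) by description and 0.11 (SE 0.16) by title.

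Within the replicate 2 pair, with 1 library a group and so no test, 32 members were lower and 28 higher in the titled ETV6-RUNX1 library, with a median of -0.01. Ndufaf4, at -1.52, and Cox7c, at -1.27, were lower by 1 or more and none was higher by as much, where 4.21% of all genes were lower and 7.40% higher by that size. By description the same members, Ndufaf4 and Cox7c, differed by 1 or more and 0 were higher by 1 or more, against 3.85% and 6.62% of all genes. Ndufaf4, Cox7c, Ndufb1, Ndufaf6 and Ndufaf2, the members farthest below 0 in the replicate 2 pair, were above 0 in the replicate 1 pair by title. Uqcrh was 0.44 higher in the replicate 2 pair and differed by -0.71 in the replicate 1 pair.

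**Figure D4:**
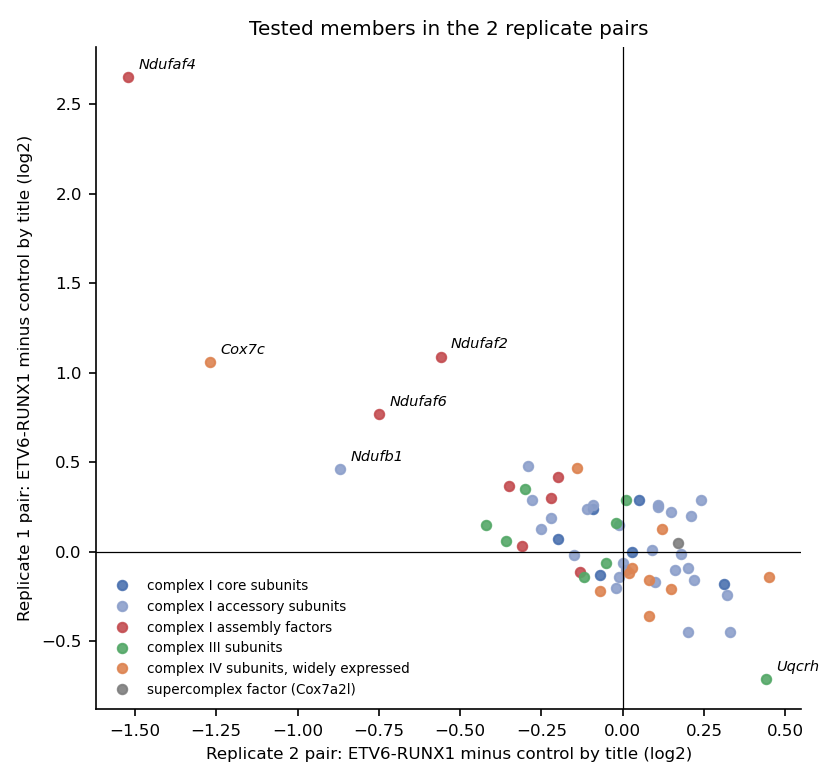
Difference of each tested member in the replicate 2 pair (horizontal, log2) and in the replicate 1 pair (vertical, log2), both as titled ETV6-RUNX1 minus titled control, coloured by role. Each axis rests on 1 library a group. Ndufaf4 lies at -1.52 and 2.65, Uqcrh at 0.44 and -0.71, and most other members lie within 0.5 of 0 on both axes.

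Over the 60 members, 65.1% of the variance between libraries lay along the described groups, 27.5% between replicate numbers and 7.35% along the titled groups, against 62.0%, 30.3% and 7.69% over all genes tested. The assembly factors had 78.5% along the described groups and 15.8% between replicate numbers. The remaining 52 genes had 51.0% and 39.9%. These shares pool squared differences over genes, so Ndufaf4, at -2.08 by description, and Cox7c, at -1.17, weigh most among the members. The shares therefore do not describe the typical member, as the median size of the difference by description was 0.14.

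Probe sets of a member gave differences that lay close together on the log2 scale, yet not always with the same sign. Of the members, 34 had several tested probe sets, and their differences lay a median of 0.15 apart by title and 0.09 by description. Over the 60 members the median size of the difference was 0.09 by title and 0.14 by description. By title the gap between probe sets was thus larger than the typical difference. Ndufb8, an accessory subunit of complex I, was the only member whose probe sets had opposite signs and lay 0.5 or more apart, with -0.19 at the probe set of mean 12.61 and 0.36 at a dimmer one of mean 5.47, by description. The differences had both signs for 17 members by title and 11 by description. Among the 60 probe sets that stand for a member, 12 carry a suffix for shared or similar sequence, 8 of kind s and 4 of kind x, so transcripts of related sequence could add to their signal.

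Other lists of oxidative phosphorylation genes are given by description, with 0 past the threshold in any of them. At an unadjusted p under 0.05 there were 3 of the ATP synthase genes and 3 of the assembly factors with other names. Of the 2 genes for cytochrome c and cytochrome c1, 1 was at that p, where 13.6% of all genes were higher and 9.76% lower. Of 16 ATP synthase genes, 10 were higher and 6 lower with a median of 0.07, and they ran from -0.37 for Atpif1, the ATPase inhibitor, to 0.26 for Atp5h, a stalk subunit. The 4 complex II genes had a median of 0.12 and the largest size among them was 0.15. Of 27 tested assembly factors with other names, 21 were lower and 6 higher, with a median of -0.18, and 9 were lower and 1 higher without overlap, against 25.6% and 30.3% of all genes. The complex IV copper chaperone Sco2 differed by -0.78 (SE 0.23), Nubpl, which delivers iron-sulfur clusters to complex I, by -0.70 (SE 0.26), and the complex III factor Uqcc2 by -0.58 (SE 0.18). Of the 6 that were higher, Coa7 differed by 0.31 (SE 0.25) and Coa5 by 0.26 (SE 0.10). Coa5 was the 1 higher without overlap, and with its probe sets averaged it gave -0.06. Cycs, the electron carrier cytochrome c, differed by -0.32 (SE 0.11). Cyc1, the cytochrome c1 of complex III, which the rule for members does not cover, differed by -0.03 (SE 0.16). Whether subunits and assembly factors differ from each other as groups was not tested.

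**Figure D5:**
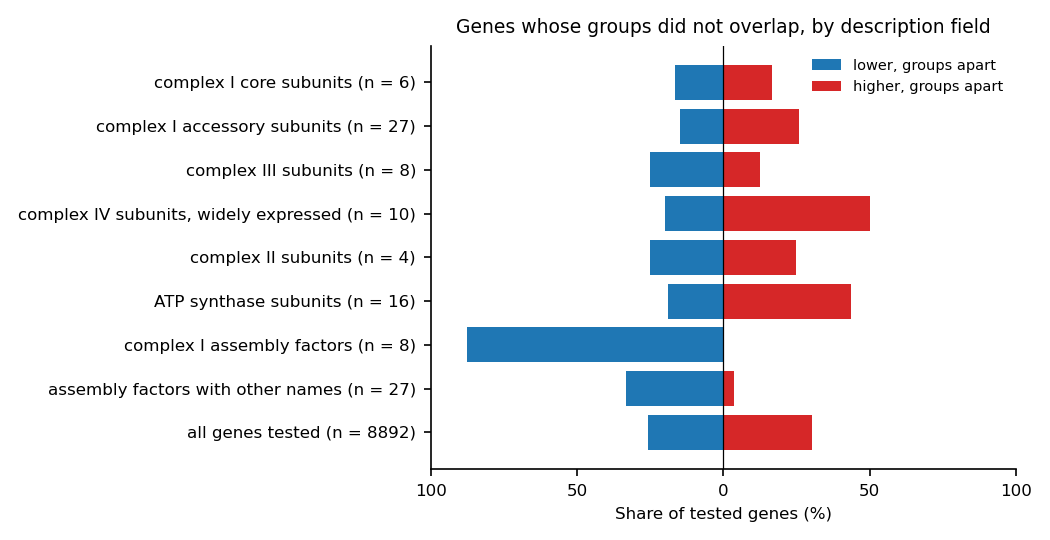
Share of tested genes of each list (horizontal, %) whose described groups did not overlap, lower in the fusion-expressing libraries to the left in blue and higher to the right in red, with n the number of genes tested. The complex I assembly factors lie to the left alone, with 7 of 8 lower, while over all genes 25.6% were lower and 30.3% higher.

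Some other features of the libraries followed the described groups too. Cd79b and the 3' minus 5' signals of Actb and Gapdh, given below, did not. Of 8 tested markers of mast cells, basophils and myeloid cells, of 15 on the array, 6 were higher by description and 5 of them without overlap, where 30.3% of all genes were, with a median of 2.33. Their summed log2 level over all 15 was 57.8 in ETV6-RUNX1 replicate 1, 86.7 in control replicate 1, 68.1 in control replicate 2 and 78.8 in ETV6-RUNX1 replicate 2, and Kit, Elane and Tpsab1 were at the floor. Of 12 early B-cell markers, only Cd79b was tested, at 8.31, 8.81, 8.62 and 8.44. The summed level of all 12 was 34.3, 35.5, 34.9 and 36.9, and 8 were at the floor, among them Pax5, Ebf1, Rag1, Rag2, Il7r and Vpreb1, so the defining markers of the labelled cell type were mostly not detected. The 3' minus 5' signal of Actb lay between 0.63 and 0.70 and that of Gapdh between -0.37 and -0.30. For the dap control transcript it was 3.10, 3.71, 3.19 and 4.43, a difference by description of 0.93. The control transcripts thr, lys and phe differed less, by 0.33, 0.14 and 0.04. Further probe sets gave 0.85 for dap, 0.09 for lys and -0.08 for phe. The part of these features in the members' differences was not tested.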

How the data were processed

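RNA from 4 libraries was measured on mouse 3' arrays. The authors deposited log2 values that they normalized and summarised per probe set by GCRMA 2.28.0, as the submitters' processing notes name it. The log2 scale was inferred from the range of the values. Per the labels, the RNA was biotin-labelled by a 3' in vitro transcription kit. Arrays have no depth, so precision rests on there being 4 libraries.

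The table held 0 columns of other samples. Its 64 control probe sets were left out, as were 10 probe sets naming a member among several genes. Symbols came from the platform annotation, and all 69 were the same in RefSeq. Groups by title (the main comparison) and by description were fitted with limma 3.58.1 in R 4.3.3 (two-sided, eBayes with trend), which was also tested on simulated data. Tables were handled with Python 3.11.15 and pandas 2.3.3.

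The members, lists and tests were chosen with earlier results of these data known. Named by rule were the 8 most raised and 8 most lowered members without overlap by description, 4 and 4 by title, examples from each role list, and genes with discordant probe sets. The 5 other lists of oxidative phosphorylation genes and the 2 marker lists are described by counts and medians. Single genes of those lists, Cox7a2l and the assembly factors outside the rule were named after their values were seen. Motifs were searched in the 250 bases before each RefSeq start. Alternatives were the filter, the variance trend, the probe sets averaged per gene, centring, a replicate block and each library left out. Protein sequences and mitochondrially encoded genes were not used here.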

Additional observations from a re-analysis of the deposited data

How the results depend on the processing

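No member passed the threshold by title or by description under any of the alternatives run. The 24 genes named by the rule kept the sign of their difference under all of them but the crossed replicate block, which was run only for counts. This was largely fixed in advance. The rule named only members whose groups did not overlap, so leaving out 1 library could not reverse the sign. The filters, the variance trend and the replicate block leave the difference of a probe set as it was. Only averaged probe sets and centring could have changed the sign. Over all 60 tested members the sign changed under at least 1 alternative in 46 by title and in 26 by description. By description these include Ndufaf3 (from -0.13 to 0.12), Uqcrc1 (from -0.58 to 0.16), Ndufv1 (from -0.32 to 0.08), Ndufv2 (from -0.06 to 0.09), Ndufb8 (from -0.38 to 0.09) and Cox7a2l (from -0.03 to 0.16). By title Ndufaf4 ranged from -0.88 to 2.01. Ndufaf4 ranged by description from -2.77 to -1.39 (limma adjusted p from 0.071 to 0.63), Uqcrh from 0.43 to 0.71 (from 0.077 to 0.53) and Cox7c from -1.73 to -0.60 (from 0.069 to 0.98). Besides Cox7c, further genes named by the rule moved by over 1.5 times from the difference given in the Results. By description these were Cox8a (from 0.09 to 0.35), Ndufa13 (from 0.24 to 0.54), Ndufa4 (from 0.19 to 0.40) and Ndufaf6 (from -1.04 to -0.48). By title they were Cox4i1 (from -0.23 to -0.05), Ndufa3 (from -0.11 to -0.03), Ndufa5 (from 0.16 to 0.28), Ndufa6 (from -0.19 to -0.03), Ndufb5 (from 0.07 to 0.25) and Ndufc1 (from 0.07 to 0.29). For these and the counts below, the cause was not tested. Without the filter on low values the complex IV median by description was 0.00, since genes at the floor then enter, and 2 members were at an unadjusted p under 0.05 by title. Without the variance trend 4 members were at an unadjusted p under 0.05 by description, and with probe sets averaged 4 were higher without overlap by title.

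Leaving out 1 library at a time, members at an unadjusted p under 0.05 numbered 0 to 5 by description (1 without ETV6-RUNX1 replicate 1, 3 without control replicate 1, 0 without control replicate 2 and 5 without ETV6-RUNX1 replicate 2) and 0 to 1 by title. The assembly factor median ranged from -0.48 to -0.24 by description and from -0.25 to 0.34 by title. By description the complex III median ranged from -0.15 to 0.00 and that of complex IV from 0.04 to 0.17. A lone library was assumed to vary like the other group.

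Replicate numbers are shared by title, but nothing says that they mark a culture or day. Deviations of same-numbered libraries correlated at -0.20 by title and at 0.59 by description. With a replicate block 11 members were at an unadjusted p under 0.05 by description and 0 passed the threshold. With the crossed replicate block, chosen after seeing the data, the counts were 5 and 0. The dim signal of Cox7c and of genes near the floor limits what their values can show.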

Other observations

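Regulators of mitochondrial gene expression were not of 1 direction. Of 15 tested, of 16 on the array, 6 were higher and 9 lower by description, with a median of -0.08, and 0 passed the limma threshold, with 3 at an unadjusted p under 0.05 (2 higher and 1 lower, where 13.6% of all genes were higher and 9.76% lower at that p). Ppargc1b, a coactivator of nuclear respiratory genes, read 8.37 in ETV6-RUNX1 replicate 1, 9.57 in control replicate 1, 7.74 in control replicate 2 and 9.17 in ETV6-RUNX1 replicate 2, a difference of 1.31 (SE 0.31, limma adjusted p = 0.17). Both libraries described as fusion-expressing lay above both described as control. Its relative Ppargc1a was at the floor, at 2.23, in every library.

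Tfb2m, a factor that mitochondrial RNA polymerase needs to start transcription, read 10.31, 9.27, 9.91 and 8.98 in the same order, a difference of -0.99 (SE 0.23, limma adjusted p = 0.17). Polg, the mitochondrial DNA polymerase, differed by 0.76 (SE 0.20) and Twnk, the helicase beside it, by -0.69 (SE 0.29). Nrf1, whose motif was searched in the members' promoters, differed by 0.06 (SE 0.19) and Yy1 by 0.00 (SE 0.09). By title these 15 genes had a median of 0.03, and 9 were higher and 6 lower.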
